A study of Mus musculus with 4 samples.

Results

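Folh1, the 4 STEAP genes Steap1, Steap2, Steap3 and Steap4, and Psca encode cell surface or endosomal membrane proteins, some known as prostate tumour antigens. They were taken by name from the deposited gene table, which has 52636 genes, so the set is 6 genes, and all 6 passed the filter on low values (at least 1 CPM, the count scaled to the library total, in at least 1 library). They were chosen by their role and by the measured hairpin values, since Folh1 and Steap4 were known to be higher in the cells with a hairpin against focal adhesion kinase. The hairpin values below are therefore a description, with no test and no support drawn from them.

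RNA-seq was done on Myc-CaP cells, a mouse prostate cancer line whose labels give the FVB strain and the Hi-Myc transgene, which drives human MYC in prostate epithelium from a probasin-derived promoter. There were 4 groups, each a single library. They were the control hairpin (shNC) with vehicle, shNC with norepinephrine, the hairpin against focal adhesion kinase (FAK, gene Ptk2; shFAK) with vehicle, and shFAK with norepinephrine. Both hairpins were stably carried, norepinephrine was given at 10 µM, and treatment with it or with vehicle lasted 24 h. The hairpin sequences, and whether each line was 1 clone or a pool, are not given in the sources used here. With 1 library per group no difference has a replicate check. The intervals are 99% counting intervals of these libraries, and a hairpin effect cannot be told apart from any other difference between the 2 lines.

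Total counts ran from 23410486 to 29948640. Ptk2 had 3547 and 3158 counts in the shNC libraries and 1294 and 1248 in the shFAK libraries (vehicle, then norepinephrine). Its log2 ratios of shFAK to shNC were -1.29 and -1.19. The shFAK norepinephrine library, the shallowest, had 119 genes with at least 8 counts in it and at most 2 in each other library, against 4 to 9 such genes in the others. Of the markers listed for prostate luminal epithelium, Foxa1 and Hoxb13 had at least 1095 counts in every library and Krt8, which has a near-identical pseudogene, had 48 to 165. Krt8 was lower in shFAK than in shNC, at log2 ratios of -1.42 under vehicle and -1.60 under norepinephrine. Krt18, Epcam and Cdh1 had at most 15 counts in any library. Those 3 defining markers were therefore at or near 0 in the line as sequenced.

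FOLH1, also called prostate-specific membrane antigen, is a zinc peptidase with its active site outside the cell. It removes glutamate from folate polyglutamates and from the neuropeptide N-acetylaspartylglutamate, and it is the target of imaging agents and radioligands in human prostate cancer. STEAP proteins are multi-pass membrane proteins that carry haem. STEAP2, STEAP3 and STEAP4 pass electrons from NADPH in the cytosol across the membrane and reduce ferric iron and cupric copper, while STEAP1 lacks the NADPH-binding domain at the amino end. PSCA is a small protein of the Ly6 family held to the membrane by a lipid anchor.

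The annotation shows these relations. In GENCODE vM21, the longest coding transcript of Steap1 encodes 339 residues, against 489 for Steap2, 526 for Steap3 and 470 for Steap4. Folh1 encodes 752 residues and Psca 123. Coordinates are those of the deposited table on mm10. Steap2 (chromosome 5, 5664829 to 5694578) and Steap1 (5736317 to 5749326) lie on the minus strand, 41.7 kb apart. Steap4 (7960457 to 7982213, plus strand) lies 2.21 Mb further along. Steap3 is on chromosome 1 (120190757 to 120272705), Folh1 on chromosome 7 (86718977 to 86775943) and Psca on chromosome 15 (74714839 to 74717069). None of the 6 overlaps another gene of the table, and none has a near-identical copy (at least 95% identity over at least 100 bases) among the annotated transcripts, so their counts do not have those 2 uncertainties.

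Promoters from RefSeq were matched for 5 of the 6 genes. The bases upstream of both the RefSeq and the GENCODE start are shown for Folh1 and Steap4, the members with the largest hairpin ratios, and for Steap1, whose ratio under vehicle was near 0. Capitals mark a match to TATAAA on the minus strand. They lie on GRCm38.p6 at chr7:86775944-86776114 (minus strand), chr5:7960222-7960456 (plus strand) and chr5:5749327-5749567 (minus strand).
Folh1: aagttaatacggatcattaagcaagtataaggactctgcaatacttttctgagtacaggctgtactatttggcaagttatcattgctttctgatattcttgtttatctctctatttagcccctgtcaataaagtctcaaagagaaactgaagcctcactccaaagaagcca
Steap4: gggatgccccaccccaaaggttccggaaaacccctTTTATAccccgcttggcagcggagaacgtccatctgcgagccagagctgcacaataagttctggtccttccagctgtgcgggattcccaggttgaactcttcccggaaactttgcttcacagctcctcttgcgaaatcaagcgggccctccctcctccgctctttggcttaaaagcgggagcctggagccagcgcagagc
Steap1: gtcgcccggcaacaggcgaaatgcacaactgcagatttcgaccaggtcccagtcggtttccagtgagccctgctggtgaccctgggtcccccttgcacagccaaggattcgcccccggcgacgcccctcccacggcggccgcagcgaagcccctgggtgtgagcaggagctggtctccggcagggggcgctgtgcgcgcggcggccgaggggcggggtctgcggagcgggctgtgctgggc

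Over the whole 300-base windows, GC content was 42.0% for Folh1, 60.3% for Steap4 and 72.3% for Steap1, with a median of 52.7% over all 32851 promoters. On both strands, 4 short motifs were searched. TATAAA, the TATA box, was found in Steap4 at -215 from the RefSeq start and in the first Steap2 window at -209, and 13.6% of all promoters hold it. CCAAT, the CCAAT box (37.4% of all), was found in Folh1 at -49, which lies downstream of the GENCODE start and is not printed. It was also found in the first Steap2 window, where it does not overlap the TATAAA match, and in 1 of 4 Steap3 windows. TGACG, the core of the cAMP response element (20.8% of all), was found in 1 of 3 Steap2 windows. AGAACA, the core of a steroid receptor site (19.0% of all), was in no window of the 5 genes. These matches are letters in a window and nothing more.

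The genes differed widely in level. Per kilobase of deposited gene length (RPKM), Psca was at 110.3 and Steap1 at 105.4 in shNC vehicle, with overlapping counting intervals (105.1 to 115.8 and 101.3 to 109.6). Steap2 followed at 22.0, then Steap3 at 2.16 and Steap4 at 1.98, whose intervals also overlapped, and Folh1 was last at 0.736 (0.529 to 0.995). In shFAK vehicle the order was Steap1 at 104.3, Psca at 101.0, Steap2 at 31.05, Folh1 at 7.13, Steap4 at 6.25 and Steap3 at 3.96. There the intervals of Steap1 and Psca overlapped, as did those of Folh1 (6.40 to 7.91) and Steap4 (5.57 to 6.99). The order of the lower genes depended on the length used. With the length of the transcript that has the longest coding sequence, added after seeing the data, Steap3 in shFAK vehicle was at 7.87, Folh1 at 7.32 and Steap4 at 6.25. In shNC vehicle Folh1 was last with either length, at 0.756 with the transcript length, where Steap1 was at 118.0 and Psca at 110.3.

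**Figure D1:**
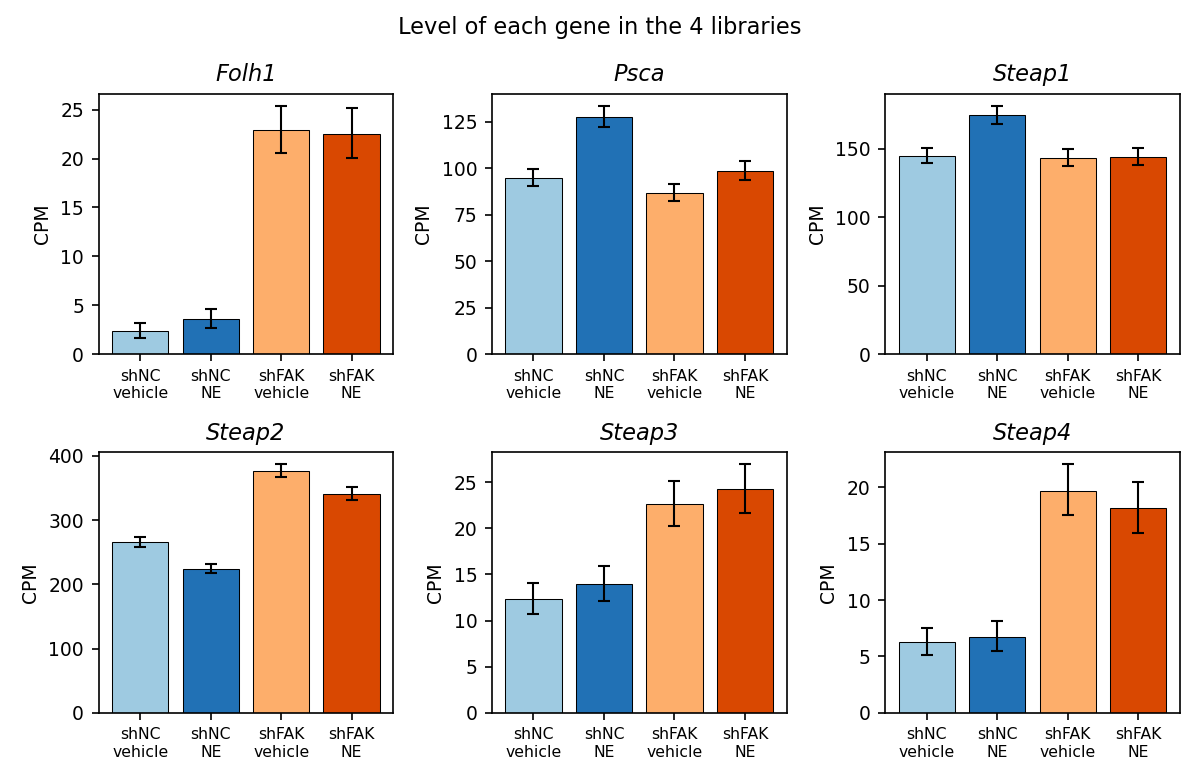
TMM-scaled CPM of each gene (linear axes from 0, a separate scale for each gene) in the 4 libraries; NE is norepinephrine, and bars carry exact 99% Poisson counting intervals of the single library. The shFAK bars of Folh1, Steap2, Steap3 and Steap4 stand above both shNC bars, and the shNC norepinephrine bar is the tallest for Psca and Steap1.

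The hairpin comparison set the line with less Ptk2 RNA beside the control line. Folh1 had 70 counts under vehicle and 96 under norepinephrine in the control line, and 607 and 541 in the shFAK line. In the same order these are 2.36, 3.60, 22.9 and 22.5 CPM. Both shFAK libraries stood well above both shNC libraries. The log2 ratio of shFAK to shNC was 3.23 in vehicle (2.81 to 3.77) and 2.62 in norepinephrine (2.24 to 3.08). Of 9383 protein-coding genes averaging 5 CPM or more, none had a higher ratio in either pair. In bulk RNA, more cells that express a gene and more RNA per cell cannot be told apart.

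Steap4, a metalloreductase best known from adipose tissue and inflammation, had 185, 179, 523 and 436 counts in the same order. These are 6.25, 6.71, 19.7 and 18.2 CPM, and the lines did not overlap. Its log2 ratio was 1.65 in vehicle (1.34 to 1.99), rank 7 of the 9383 genes, and 1.42 in norepinephrine (1.10 to 1.78), rank 17. Steap3, the ferrireductase of the transferrin cycle in developing red cells, had 366, 371, 600 and 582 counts, again with both shFAK libraries above both shNC libraries. Its log2 ratios were 0.87 (0.62 to 1.12) and 0.80 (0.55 to 1.05), ranks 85 and 216, so it was short of a doubling.

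Steap2 had the most counts of the 6 genes, at 7897, 5988, 10004 and 8199. Its lowest shFAK library, at 341.3 CPM, was above its highest shNC library, at 266.6 CPM. The log2 ratios were 0.50 in vehicle (0.44 to 0.56) and 0.60 in norepinephrine (0.54 to 0.67). When a trend with gene length and GC content, fitted per library, was removed, these became 0.30 and 0.22. Steap2 is the longest of the 6 genes, at 12144 bases, and hairpin ratios were larger for longer genes (Spearman 0.32 under vehicle and 0.47 under norepinephrine over 12351 genes of the same libraries). The part of length in the Steap2 ratio was not tested beyond this removal.

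Steap1 had 4298, 4657, 3811 and 3465 counts, or 145.1, 174.7, 143.6 and 144.2 CPM. Only the shNC norepinephrine library stood apart. Its log2 hairpin ratio was -0.01 in vehicle, with an interval of -0.10 to 0.07, and -0.28 in norepinephrine (-0.36 to -0.19). The latter was -0.10 with the trend removed and -0.19 with library size alone.

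Psca had 2811, 3408, 2305 and 2370 counts, or 94.9, 127.8, 86.9 and 98.7 CPM, and its lines overlapped. The log2 hairpin ratio was -0.13 in vehicle (-0.23 to -0.02) and turned to 0.02 with the trend removed. In norepinephrine it was -0.37 (-0.47 to -0.27), and -0.14 with the trend removed. Psca is the shortest of the genes, at 860 bases.

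The size rule asked for a log2 ratio of 1 or more in either direction, with an interval that left out 0. By this rule 2 of the 6 genes, Folh1 and Steap4, were higher in shFAK under vehicle and none lower, where 1.42% of the 12351 genes kept were higher and 0.462% lower. Under norepinephrine the same 2 genes were higher and none lower, with 2.62% and 0.632% of all genes. In both pairs together 0.769% of all genes were higher and 0.162% lower. By the interval alone, 4 of the 6 were higher and 1 lower under vehicle (21.0% and 20.9% of all genes) and 4 higher and 2 lower under norepinephrine (27.7% and 25.7%). In both pairs 4 were higher and 1 lower (17.0% and 16.6%). These counts are those for which the set was chosen, and nothing is read from them. The median log2 ratio of the 6 was 0.68 in vehicle and 0.70 in norepinephrine, and that of all genes kept was 0.00 and 0.02. Under all 8 other scalings and prior counts tried, Folh1 and Steap4 stayed past the rule in both pairs, with Folh1 between 3.09 and 3.28 in vehicle and Steap4 between 1.60 and 1.69.

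**Figure D2:**
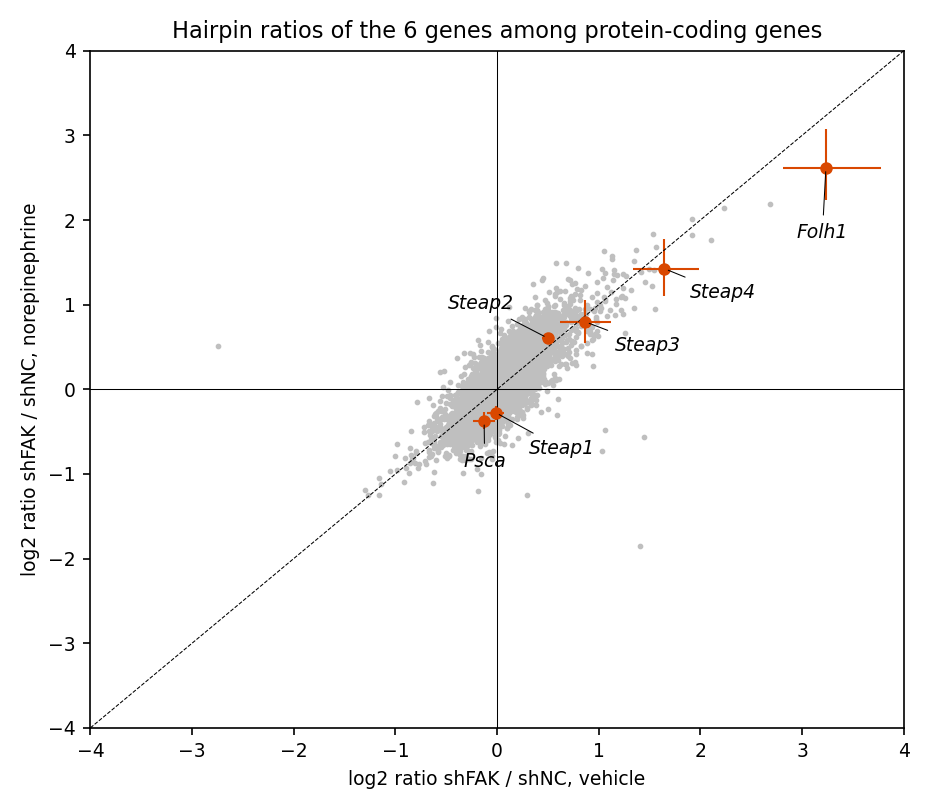
Log2 ratio of shFAK to shNC in norepinephrine (vertical) against vehicle (horizontal) for the 6 genes, orange with 99% counting intervals, and for protein-coding genes averaging 5 CPM or more, grey; the dashed line marks equal ratios. Folh1 lies farthest to the right at 3.23 and 2.62, Steap4 and Steap3 follow, and Steap1 and Psca lie at or below 0.

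The STEAP family was therefore not uniform between the lines, and its make-up per length differed. Steap1 made up 80.2% of the summed STEAP RPKM in shNC vehicle and 84.6% in shNC norepinephrine, and 71.7% and 73.3% in the shFAK libraries. Steap2 made up 16.7% and 12.3% in shNC and 21.3% and 19.7% in shFAK. Steap4, at 1.51% and 1.42% in shNC, was at 4.29% and 4.03% in shFAK, and Steap3 went from 1.64% and 1.62% to 2.72% and 2.97%. In shFAK the 3 reductase genes therefore held a larger part of the family and Steap1 a smaller one. These shares were not recomputed with the length and GC trend removed. That removal took the log2 hairpin ratios of Steap2 from 0.50 and 0.60 to 0.30 and 0.22. It took those of Steap1 from -0.01 and -0.28 to 0.06 and -0.10. With the transcript length in place of the deposited one, Steap1 was at 78.7%, 83.3%, 69.9% and 71.4%. Steap3 was then at 2.87% and 2.84% in shNC and 4.71% and 5.13% in shFAK, above Steap4 at 1.32% and 1.25%, then 3.74% and 3.50%. The order of Steap3 and Steap4 in shFAK was thus reversed. The part of each transcript isoform in these lengths was not tested.

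**Figure D3:**
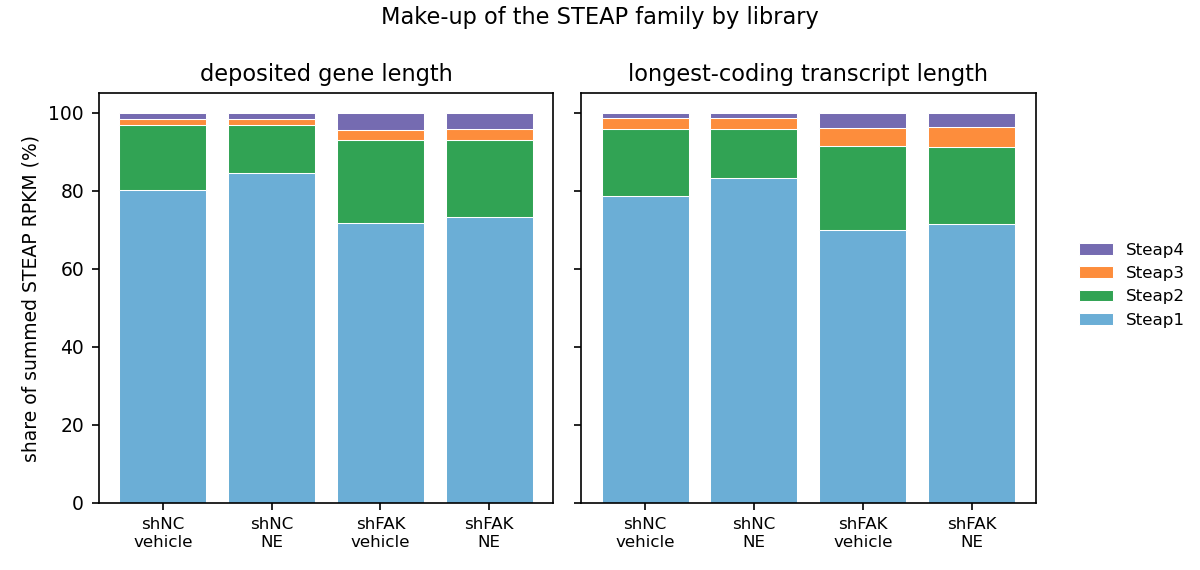
Share of each STEAP gene in the summed STEAP RPKM (percent, vertical) in the 4 libraries, with the deposited gene length (left) and with the length of the transcript that has the longest coding sequence (right). Steap1 is the largest part of every bar, and the Steap4 part is larger in the shFAK bars (4.29% and 4.03%) than in the shNC bars (1.51% and 1.42%).

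The other comparison set norepinephrine against vehicle within each line. No member passed the size rule in either line or in both. Among all genes kept, 0.364% were higher and 0.494% lower in shNC, and 0.696% higher and 0.178% lower in shFAK, with 0.0405% and 0.0243% in both lines. By the interval alone, Folh1, Psca and Steap1 (3 of 6) were higher with norepinephrine in shNC and Steap2 (1 of 6) lower, where 21.7% and 22.8% of all genes were. In shFAK, Psca alone was higher and Steap2 alone lower, where 10.4% and 12.3% were. These are also the members whose interval left out 0 the same way in both lines, as for 6.95% (higher) and 9.95% (lower) of all genes. Median log2 ratios of the 6 were 0.22 in shNC and -0.01 in shFAK, and those of all genes were 0.00 in both.

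Psca had the clearest interval above 0, with log2 ratios of 0.43 in shNC (0.33 to 0.52) and 0.18 in shFAK (0.07 to 0.29). Steap2 went the other way, at -0.25 in shNC (-0.31 to -0.18) and -0.14 in shFAK (-0.20 to -0.09). Norepinephrine ratios were smaller for longer genes (Spearman -0.49 for shNC and -0.29 for shFAK over the 12351 genes), and Psca and Steap2 are the shortest and the longest of the members. The trend removed was that of length and GC content together, and the part of each was not tested. With the trend removed, Psca stood at 0.18 in shNC (0.09 to 0.28) and 0.02 in shFAK (-0.09 to 0.13). Steap2 turned to 0.08 in shNC (0.01 to 0.14) and was at -0.0027 in shFAK (-0.06 to 0.05). No direction with norepinephrine can be given for Steap2 from these libraries.

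For Steap1 the ratio was 0.27 (0.19 to 0.35) in the control line, or 0.18 with the trend removed. It was 0.01 (-0.08 to 0.09) in the shFAK line, or 0.01. Folh1 was at 0.59 in shNC, from 70 to 96 counts, with an interval of 0.01 to 1.22 that came to include 0 under library size alone. In shFAK it was at -0.02 (-0.25 to 0.20), and 0.04 with the trend removed. Steap3 was at 0.17 (-0.11 to 0.45) and 0.10 (-0.12 to 0.32), and Steap4 at 0.10 (-0.29 to 0.50) and -0.12 (-0.36 to 0.12). For Steap3 and Steap4 a difference with norepinephrine was not detectable at this depth in either line, and their intervals leave out a change of 2-fold in either direction.

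**Figure D4:**
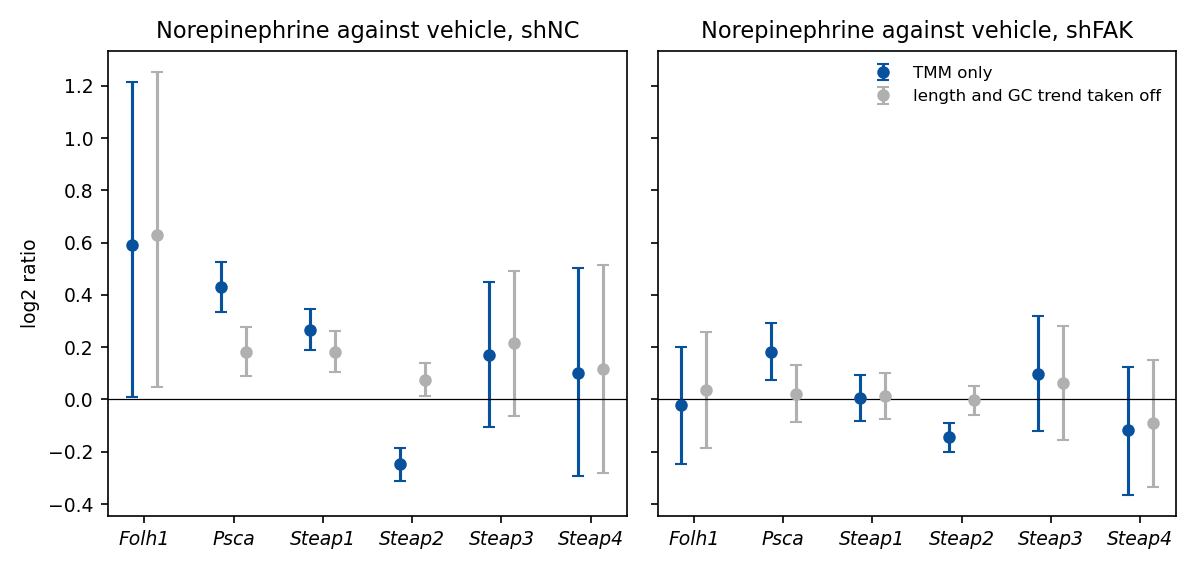
Log2 ratio of norepinephrine to vehicle (vertical) for the 6 genes in shNC (left) and shFAK (right), with 99% counting intervals, as scaled by TMM (blue) and with the trend removed (grey). Steap2 in shNC goes from -0.25 to 0.08, Psca in shFAK from 0.18 to 0.02, and Folh1 in shNC has the widest interval.

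The difference of the norepinephrine responses was taken as shFAK minus shNC. It was -0.26 for Steap1 (-0.38 to -0.14), -0.25 for Psca (-0.39 to -0.10) and -0.61 for Folh1 (-1.24 to 0.01). For Steap2 it was 0.10 (0.02 to 0.19), which became -0.08 with the trend removed. The difference then was -0.17 for Steap1 and -0.16 for Psca. Steap3, at -0.07, and Steap4, at -0.22, had intervals on both sides of 0. By the interval 3 of the 6 genes differed, and 22.9% of the 12222 genes with at least 10 counts in each library did. The difference was not tested, since each line has 1 library per treatment.

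Genes with the pattern most like Folh1 and Steap4 over the 4 libraries were taken as the 5 protein-coding genes at the smallest Euclidean distance of log2 CPM, each gene centred on its mean, among 9200 genes averaging 5 CPM or more (predicted genes passed over). Those nearest to Folh1 were Cck (cholecystokinin, distance 0.60), the actin-binding gene Ablim1 (0.85), the chemokine Cxcl5 (1.00), Igfbp5 (1.06) and Slpi (1.15). Even the nearest, Cck, had 482, 791, 2781 and 3251 counts and log2 hairpin ratios of 2.68 and 2.19. Those nearest to Steap4 were the plexin Plxnd1 (0.15), the matrix gene Fbln2 (0.20), Kank4 (0.21), Sned1 (0.25) and the adhesion receptor gene Adgra1 (0.28). Plxnd1 had 90, 89, 231 and 218 counts, with log2 hairpin ratios of 1.496 and 1.42. Kank4 and Sned1 overlap genes on the other strand, whose reads cannot be told from theirs without strand, and Sned1 shares sequence with its overlapping gene Mterf4. Ranking by Pearson correlation kept 1 of the 5 genes for Folh1 and 0 for Steap4, so these names depend on the measure.

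**Figure D5:**
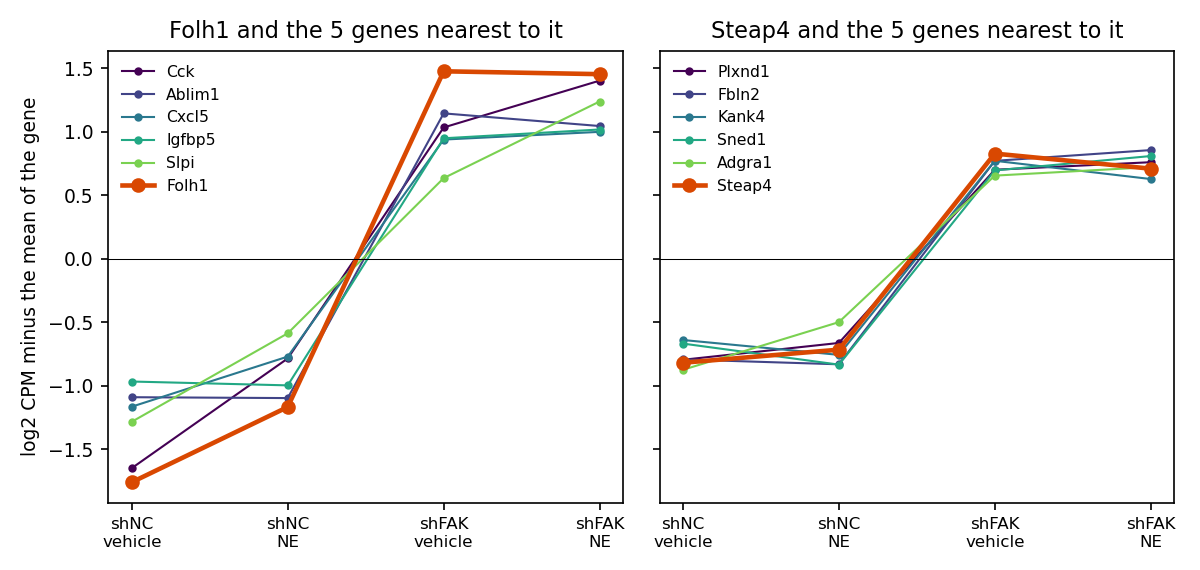
Log2 CPM minus the mean of the gene (vertical) in the 4 libraries for Folh1 (left) and Steap4 (right), thick orange, and the 5 genes nearest to each; lines only join the points of a gene. The Steap4 neighbours lie within distances of 0.15 to 0.28, and those of Folh1 within 0.60 to 1.15.

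Genes beside the members on the chromosome were also read. The 6 nearest protein-coding genes of Folh1 are olfactory and vomeronasal receptor genes, and none reached 1 CPM in a library. Between Steap2 and Steap4, whose hairpin ratios were above 0, lies Steap1, whose ratios were not. Cfap69, 0.589 kb from Steap2, was at log2 hairpin ratios of 0.29 and 0.22, and Gtpbp10, 105.3 kb away, at 0.26 and 0.34. Removal of the trend left Cfap69 at 0.15 and -0.05 and Gtpbp10 at 0.13 and 0.10, each with an interval that included 0. On the far side of Steap4, Sri (63.9 kb) was at -0.15 and -0.27 and Dbf4 at -0.09 and -0.10, or -0.25 and -0.42 for Sri and -0.26 and -0.40 for Dbf4 with the trend removed. Adam22 was at -0.59 and 0.12, with 53 to 90 counts, and Gm8773, with 24 to 34, at -0.27 and 0.44. Of the measured neighbours of Steap4 (Steap1, Sri, Adam22 and Dbf4), the highest ratio in either pair was that of Adam22 under norepinephrine. It was 0.12 (-0.56 to 0.81), or 0.21 with the trend removed.

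Near Steap3, 3110009E18Rik, 2.57 kb away, was at -0.13 and -0.79, Dbi at 0.08 and -0.14, and Tmem37 at 0.26 and -0.04. With the trend removed, Dbi and Tmem37 were at 0.03 and 0.14 under norepinephrine. Near Psca, Them6, 4.13 kb away, had norepinephrine ratios of 0.34 in shNC and 0.16 in shFAK, the latter below 0 (-0.09) with the trend removed. Slurp1, a Ly6-family gene that overlaps Them6 and shares sequence with it, had 14, 37, 9 and 17 counts, with norepinephrine ratios of 1.42 and 0.92. Jrk, Arc and Mroh4 had hairpin ratios between -0.13 and 0.21 in both pairs.

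Related genes were taken as lists by function. The list of the M28 peptidase family of Folh1 and of folate handling had 15 of 20 genes kept. None was past the size rule in shFAK against shNC under vehicle, and 1, the transferrin receptor gene Tfr2, was higher under norepinephrine, with 21, 19, 6 and 39 counts. The median log2 hairpin ratio was -0.02 in vehicle and -0.11 in norepinephrine. Shmt2, which makes one-carbon units in mitochondria, was at -0.26 and -0.28, and Mthfd2, the next enzyme of that route, at -0.19 and -0.35. The folate carrier Slc19a1 was at -0.18 in both pairs, and the proton-coupled folate transporter Slc46a1 at 0.21 and 0.13. With norepinephrine Tfr2 alone was past the rule, in shFAK only (log2 2.50), and the mitochondrial folate carrier Slc25a32 was at -0.36 and -0.17. Tfr2 passed the filter only through the shFAK norepinephrine library, where it was high, so nothing is read from its calls. Tfrc, the main transferrin receptor and a relative of Folh1, was at norepinephrine ratios of -0.27 and -0.07, or -0.10 and 0.03 with the trend removed.

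Iron and copper genes, the partners of the STEAP reductases, had 25 of 32 kept, with medians of -0.05 and 0.08 between the lines. None was past the rule under vehicle, and 2 were higher in shFAK under norepinephrine, Tfr2 and the copper exporter Atp7a. Atp7a had 473, 185, 681 and 474 counts, with log2 hairpin ratios of 0.68 and 1.498. It was also the 1 gene past the rule in shNC with norepinephrine, at -1.19, against -0.38 in shFAK. In shNC it was at -0.96 with the trend removed, no longer past the rule. The copper transporter gene Slc31a2 was at 0.52 and 0.31 between the lines and the ferritin receptor Ncoa4 at 0.14 and 0.41. Ncoa4 has a near-identical copy. Ceruloplasmin (Cp), a ferroxidase, was at norepinephrine ratios of -0.48 in shNC (-0.21 with the trend removed) and -0.62 in shFAK (-0.50), and it overlaps Hps3 on the other strand.

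The Ly6 and uPAR family of Psca had 6 of 37 genes of the table kept. Ly6a (Sca-1), a marker of mouse prostate progenitor cells, had 1288, 1527, 2684 and 2644 counts, with log2 hairpin ratios of 1.22 (1.09 to 1.35) and 0.94 (0.82 to 1.06). It was the 1 family gene past the rule in vehicle, and none was in norepinephrine, where Ly6a was past it in 2 of 8 alternatives (1.13 with the trend removed). Ly6c1 was at 0.67 and 0.64, Plaur, the urokinase receptor, at -0.06 and -0.24, and Lynx1 at 0.10 and 0.19. Ly6a and Ly6c1 share near-identical sequence, so their counts are uncertain. With norepinephrine Slurp1 alone was past the rule, in shNC, and it passed the filter only through the shNC norepinephrine library. The family medians between the lines were 0.06 and 0.09, and Psca itself was not higher in shFAK.

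Of other surface antigens of prostate and epithelial tumours, 17 of 37 were kept. Mme, the peptidase neprilysin (CD10), had 846, 609, 1687 and 1458 counts and was higher in shFAK in both pairs, at 1.15 (1.00 to 1.31) and 1.41 (1.23 to 1.59). With the trend removed it was at 0.94 and 1.03. Ceacam1 was the other gene past the rule, in norepinephrine, with 14 and 46 counts in shNC and shFAK. It passed the filter only through the shFAK libraries. Erbb3 was at 0.60 and 0.88, Met at 0.42 and 0.71, and the aminopeptidase Anpep at 0.39 and 0.59, and none was lower by the rule. Cldn3 was at -0.21 and -0.45 between the lines, or -0.07 and -0.27 with the trend removed. By the interval 7 of the 17 were higher and 3 lower under vehicle (21.0% and 20.9% of all genes). Under norepinephrine 8 were higher and 4 lower (27.7% and 25.7%). The medians were 0.20 and 0.16. None passed the rule with norepinephrine. The claudin Cldn3 was at 0.60 and 0.36 (shNC, then shFAK) and the receptor Ly75 at -0.30 and -0.27. Cldn3 was at 0.30 and 0.10 with the trend removed, and Ly75 at -0.13 and -0.21 with intervals that included 0. Met was then at 0.31 under vehicle and 0.47 under norepinephrine between the lines.

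The list of NADPH oxidases and other electron carriers, without the STEAPs, had 5 of 14 genes kept and none past the rule in any pair. The cytochrome P450 reductase Por was lowest between the lines, at -0.59 and -0.67. Cyb5r1 was at -0.35 and -0.15, Txnrd1, thioredoxin reductase, at 0.25 and 0.35 (0.15 and 0.13 with the trend removed), and Cyb5r3 at -0.03 and -0.08, which reached 0.01 in each pair under another scaling. With norepinephrine Cyb5r3 was at 0.26 and 0.22, and Cyb5r4 at -0.19 and -0.08, the latter 0.01 with the trend removed. The list medians between the lines were -0.08 and -0.08.

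Of 12 regulators of the prostate lineage, 9 were kept. Gata2 alone was past the rule between the lines, in norepinephrine, where shNC had 6 counts and shFAK 28. It passed the filter only through the shFAK libraries. It was also the 1 gene past the rule with norepinephrine, in shNC, from 26 to 6 counts. Gata3 was at 0.39 and 0.31 between the lines, Sox9 at -0.14 and -0.16, and Foxa1 at 0.07 and 0.23. Hoxb13 was at 0.16 and -0.09, the latter 0.002 with the trend removed, and its norepinephrine ratios were 0.42 and 0.18, or 0.27 and 0.07 with the trend removed. The list medians between the lines were 0.25 and 0.31. Without strand, reads of Shmt2, Slc19a1, Por, Txnrd1, Cldn3, Ly75, Gata3, Sri and Pdgfra cannot be told from those of overlapping genes on the other strand, and Cyb5r4, Dbi and Gtpbp10 have near-identical copies.

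Markers of other cell types in which these proteins are known were also summed. The values are given as vehicle then norepinephrine, first for shNC and next for shFAK. Endothelial markers (5 genes, since FOLH1 marks tumour vessels in humans) summed to 0.270, 0.225, 0.038 and 0.250 CPM. None of them had more than 5 counts in any library or passed the filter, so no direction is given. The astrocyte, erythroid, leukocyte, basal and fibroblast sums were higher in shFAK in both pairs as scaled, but several rest on few or near-equal counts. Under norepinephrine (shNC, then shFAK) Krt14 had 69 and 70 counts, Cd68 24 and 26, Gfap 13 and 11 and Epor 13 and 27. The interval of the hairpin ratio included 0 for Cd68 and Epor in both pairs and for Krt14 under norepinephrine. It was above 0 for Krt14 under vehicle and for Pdgfra in both pairs. With the trend removed, Pdgfra was at 0.26 under vehicle (-0.05 to 0.57) and 0.44 under norepinephrine (0.10 to 0.79). Astrocyte markers (3 genes) summed to 0.540, 0.525, 0.791 and 0.583 CPM, with Aqp4 at 0 counts. Erythroid markers (3 genes) summed to 0.844, 0.487, 1.17 and 1.17 CPM, nearly all from Epor, with Hbb-bs at 0. Macrophage and leukocyte markers (5 genes) summed to 1.01, 1.13, 1.55 and 1.37 CPM, with Adgre1 and Cd3e at 0 counts in every library. Basal markers (3 genes) summed to 3.27, 3.04, 4.64 and 3.54 CPM, mostly from Krt14. Fibroblast markers (6 genes) summed to 9.69 and 7.65 CPM in shNC and 13.3 and 13.6 CPM in shFAK, nearly all from Pdgfra, with Dcn and Lum at 0 counts. Col1a1 was past the rule under norepinephrine, with 4 and 24 counts, and it passed the filter only through the shFAK norepinephrine library. Of the adipocyte markers, Adipoq and Lep had no counts, Plin1 had 10 in 1 library, and Fabp4 was at 46.1, 62.3, 49.4 and 57.9 CPM, above Folh1 and Steap4 in every library. The part of these marker differences in the Folh1 and Steap values was not tested.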

How the data were processed

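The authors' deposited table holds unnormalised counts for each gene of the 4 libraries, with coordinates and gene length. The submitters' processing notes name mm10, HISAT2 2.0.5 and featureCounts 1.5.0-p3; annotation release, strand setting and treatment of multi-mapping reads are not given in the sources used here. The labels' protocols give Trizol RNA and a NEBNext Ultra library kit. Columns were assigned to samples by title.

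From the deposited counts, genes with a CPM of at least 1 in at least 1 library were kept (12351). Ratios used TMM library sizes of edgeR 4.0.16 (R 4.3.3) and a prior count of 2, with exact 99% Clopper-Pearson intervals. The difference of responses used a normal approximation on the log scale. Intervals cover counting error only. They take reads as independent, which amplified reads are not, so they may be too narrow even for that. No test across genes was used, since each group has 1 library. RPKM used the deposited lengths.

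Alternatives were prior counts of 0.5 and 10, TMM on protein-coding genes, omission of mitochondrially encoded genes, upper-quartile factors, DESeq2 1.42.0 size factors, plain library sizes, other filters and thresholds, and a spline trend (4 degrees of freedom each) with gene length and transcript GC content removed, available for 99.9% of kept genes. Copies were found with minimap2 2.31 on GENCODE vM21, whose coordinates matched the deposited table for 95.2% of shared identifiers. Ratios and intervals were tested on simulated data.

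Members and lists were chosen with earlier results of these data known. Of each list, up to 4 genes with the largest mean hairpin ratio in size and 2 with the largest mean norepinephrine ratio (mean CPM of at least 5) were named, with any gene past the size rule in both pairs. So were the 5 genes nearest to Folh1 and to Steap4 and every neighbour with a CPM of at least 1. Tfr2, Ceacam1, Gata2, Slurp1 and Col1a1, past the size rule in 1 pair of a contrast, were named after their values were seen. Each passed the filter only through libraries where it was high, so their calls are a description. Some list genes are not reported here.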

Additional observations from a re-analysis of the deposited data

Results flagged for a closer look

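Folh1 and Steap4 had norepinephrine log2 ratios of opposite sign in the lines. For Folh1 these were 0.59 in shNC and -0.02 in shFAK, a difference of -0.61, and for Steap4 0.10 and -0.12, a difference of -0.22. Each line has 1 library per treatment, and the difference was not tested. The interval of each difference included 0, and the shFAK value of Folh1 was 0.04 once the length and GC trend was removed.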

How the results depend on the processing

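Each of the 30 ratios and differences of the members was recomputed under 4 to 8 other scalings or prior counts, 216 values in all. Of these, 199 stayed within the 95% counting interval of the reported value, 14 moved outside it and 3 reversed; the 17 came from the length and GC trend (13) and library size alone (4). With the trend removed, Psca reversed to 0.023 under vehicle between the lines, Steap2 to 0.076 with norepinephrine in shNC and to -0.078 in the difference of responses. With the trend removed, hairpin ratios under vehicle and norepinephrine were 0.065 and -0.10 for Steap1 and 0.30 and 0.22 for Steap2, and -0.14 for Psca under norepinephrine. Norepinephrine ratios were then 0.18 in shNC for Steap1 and for Psca, 0.023 in shFAK for Psca and -0.0027 in shFAK for Steap2, and the difference of responses was -0.17 for Steap1. With library size alone, hairpin ratios were 0.54 and 0.69 for Steap2, and under norepinephrine -0.19 for Steap1 and -0.29 for Psca. The cause was not tested.

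The number of genes past the size rule depended on the filter. In the order hairpin under vehicle, hairpin under norepinephrine, norepinephrine in shNC and norepinephrine in shFAK, the main counts were 175, 323, 45 and 86 higher and 57, 78, 61 and 22 lower. With 5 CPM or more required in 1 library they were 69, 111, 14 and 10 higher and 17, 25, 15 and 4 lower, and with a mean CPM of at least 5, added after seeing the data, 56, 88, 10 and 8 and 12, 19, 11 and 3; fewer genes are tested there. A 1.5-fold rule gave 456, 1002, 193 and 157 higher and 197, 389, 267 and 53 lower. Without a filter the counts that moved were 538, 79 and 351 higher (all but hairpin under vehicle) and 94, 125, 94 and 52 lower. A prior count of 10 gave 36 lower under vehicle between the lines, 23 higher and 39 lower in shNC and 6 lower in shFAK, and the trend removed gave 51 lower under norepinephrine between the lines. Of the 5 genes most like Folh1 and of those most like Steap4, 1 and 0 were kept by Pearson correlation and 2 and 2 with a mean CPM of at least 1.

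No paired analysis was possible because each group has 1 library, so the groups share no set of replicate numbers. Depth limits Folh1 in shNC most, where a ratio rests on 70 and 96 counts.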
